A study of Mus musculus with 10 samples.

Results

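The folding machinery of the endoplasmic reticulum (ER) and the sensors that watch over it were examined in inguinal white adipose tissue (iWAT) of mice after a paternal low-protein diet. The 34 genes were chosen by name from the 51826 genes listed in the files, and each was found once. They fall into 6 roles: 9 chaperones of the Hsp70 and Hsp90 families with their partners, 2 lectin chaperones, 5 disulfide isomerases, 5 stress sensors with their effectors, 9 genes of ER-associated degradation, and 4 genes of the translocon through which new proteins enter the ER. All mice were C57BL/6 males. In the F0 generation, 2 mice were fed a control diet (CD) and 2 a low-protein diet (LPD) from weaning, and their iWAT was taken at 10–12 weeks of age. In the F1 generation, 3 mice had CD fathers (CD offspring) and 3 were offspring of LPD fathers (pLPD offspring); their mothers and they themselves ate only the CD, so only the diet of the father differed, and they were killed at 5 weeks. One library was made per mouse from total RNA of iWAT after removal of ribosomal RNA. The markers of adipocytes were present in every library, at a summed 16528 to 23063 CPM (exon reads scaled to the library size) over 10 genes. Because whole tissue was sequenced, fewer cells of a type and less RNA per cell cannot be told apart.

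Secreted and membrane proteins are threaded into the ER through the Sec61 channel and folded there. BiP, the Hsp70 of the ER encoded by Hspa5, binds unfolded stretches with the help of J-domain partners, calreticulin and calnexin hold chains that carry a sugar tag, and disulfide isomerases pair their cysteines. Chains that fail to fold are drawn back to the cytosol by the Sel1l and Syvn1 ubiquitin ligase complex and degraded. When unfolded protein builds up, 3 sensors in the ER membrane start the unfolded protein response: IRE1 (Ern1), which splices the mRNA of Xbp1, ATF6, which is cut to release a transcription factor, and PERK (Eif2ak3), which slows translation. In adipose tissue the ER serves the secretion of adipokines and of matrix proteins.

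Many genes of this response carry the ER stress element (ERSE), to which ATF6 and XBP1 bind together with NF-Y. Its letters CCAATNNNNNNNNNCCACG were searched on both strands of the 250 bases before each RefSeq start (GRCm38.p6, the assembly of mm10), where windows were at hand for 28 of the 34 genes. The element lay whole within the window in 9 of the 28 genes (32.1%), and in 35 of the 27025 genes of the RefSeq table (0.1295%). One matching element is shown per gene, written in its own reading direction with its fixed letters in capitals, because of the 4 elements searched it was the one matched in the most ER genes:
Hspa5: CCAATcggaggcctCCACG
Hsp90b1: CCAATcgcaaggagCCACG
Dnajc3: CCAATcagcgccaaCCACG
Creld2: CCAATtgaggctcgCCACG
Calr: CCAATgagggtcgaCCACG
Canx: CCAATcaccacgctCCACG
Pdia6: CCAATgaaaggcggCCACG
Syvn1: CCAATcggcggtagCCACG
Derl3: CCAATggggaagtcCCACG
The element of Hspa5 lay at chr2:34772025-34772043 on the plus strand, with 46 bases between it and the start. That of Calr lay at chr8:84847075-84847093 on the plus strand, against the direction of the gene and 143 bases from its start. Hsp90b1 held a second match, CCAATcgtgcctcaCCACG at chr10:86705533-86705551, at 88 bases from the start, the first lying 193 bases away. The 9 genes came from 4 of the roles, and no window of a sensor, effector or translocon gene held these letters. Atf6, Hyou1, Manf, Derl1, Tram1 and Sec61a1 had no window and were not searched.

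A related element, ERSE-II (ATTGGNCCACG), was matched in Herpud1 among the 28 genes and in 10 of the 27025 genes (0.037%), as ATTGGgCCACG at chr8:94386377-94386387. The cAMP response element TGACGTCA, which ATF6-like factors can also bind, was matched in Ppp1r15a at chr7:45526273-45526280 and in 478 of the 27025 genes (1.77%). The letters TGACGTGG of the unfolded protein response element were in none of the 28 windows and in 163 of the 27025 genes (0.603%). The windows of Calr, of Herpud1 and of Xbp1 are given whole, the first 2 because they show where an element sits and the third because Xbp1 differed most between the generations and held no match. Capitals mark the fixed letters of an element, which in Calr reads on the opposite strand:
Calr: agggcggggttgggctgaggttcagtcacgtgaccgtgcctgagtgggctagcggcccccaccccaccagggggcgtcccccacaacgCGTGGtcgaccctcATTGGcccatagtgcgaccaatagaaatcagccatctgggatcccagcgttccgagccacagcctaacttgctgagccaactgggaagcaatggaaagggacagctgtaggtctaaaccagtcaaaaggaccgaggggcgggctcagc
Herpud1: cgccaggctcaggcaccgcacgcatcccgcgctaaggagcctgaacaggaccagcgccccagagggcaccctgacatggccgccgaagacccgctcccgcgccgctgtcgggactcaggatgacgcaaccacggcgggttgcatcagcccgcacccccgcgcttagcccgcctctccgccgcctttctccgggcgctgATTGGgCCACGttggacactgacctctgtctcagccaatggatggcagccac
Xbp1: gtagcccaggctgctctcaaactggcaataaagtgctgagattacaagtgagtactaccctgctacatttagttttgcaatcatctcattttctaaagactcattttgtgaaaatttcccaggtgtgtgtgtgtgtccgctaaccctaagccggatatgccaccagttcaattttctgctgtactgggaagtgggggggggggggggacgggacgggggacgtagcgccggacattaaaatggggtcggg
These windows lie at chr8:84846932-84847181 on the minus strand, chr8:94386179-94386428 on the plus strand and chr11:5520391-5520640 on the plus strand. The window of Herpud1 ends on all but the last letter of an ERSE, and the bases beyond the window were not searched. A match describes letters and does not show that a factor binds.

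The libraries held 6351075 to 10044546 reads on exons. The floor of 3 reads stood at 0.299 to 0.472 CPM, a bound that covers counting error only. Of the 34 ER genes, 30 had at least 100 exon reads in every mouse, and the highest count was 4159. Derl3, a derlin expressed at a high level mainly in secretory cells, had 1 to 11 reads in the F1 mice and 8 to 18 in the F0 mice, and the lowest count of any of the other genes was 36. In pLPD offspring, exons took 51.6% to 59.3% of the reads on protein-coding nuclear genes, against 62.5% to 64.0% in CD offspring and 62.1% to 63.7% in F0. Mitochondrial ribosomal RNA took 13.5% to 18.2% of all reads on genes in pLPD offspring and 9.29% to 10.5% in CD offspring. In pLPD offspring, 8 of 8 macrophage markers were lower, 5 of them past the threshold of an adjusted p-value of 0.05, and the summed level of the list was 786 to 921 CPM against 1135 to 1413. The 10 fibroblast and progenitor markers summed to 12759 to 16059 CPM in pLPD offspring and to 17862 to 29886 CPM in CD offspring, with 9 lower and 1 past the threshold. Endothelial markers were lower in 6 of 6 with none called, epithelial markers in 4 of 4 tested with 2 called, and B cell and T cell markers were higher in 8 of 8 each with none called; adipocyte, plasma cell and skeletal muscle markers had both signs and no call. None of the 9 marker lists held a gene at 0 in all mice of a generation. The part of these differences in the values of the ER genes was not tested. A fit with the exon share as a covariate is given below. That share did not overlap between the paternal diets, so the fit cannot tell it apart from the diet.

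Levels were compared between genes as RPKM, reads per kilobase of exon and per size of the library. In CD offspring, Calr was the highest at 68.7 ± 4.83 RPKM (SD, n = 3). Hspa5 followed with 48.6 ± 5.25, P4hb, which encodes protein disulfide isomerase itself, with 45.6 ± 2.42, Hsp90b1 (GRP94) with 41.5 ± 4.95 and Canx with 36.5 ± 2.96 RPKM. These genes headed the order, with Derl1, a derlin of the degradation channel, next at 34.5 ± 2.10 RPKM. The other chaperones and isomerases stood lower, from Pdia3 at number 7 to Sdf2l1 at number 27 and Pdia5 at number 31. Xbp1 was number 10 in this order in CD offspring and number 6 in CD-fed F0 mice. The sensors stood in the lower part of the order: Atf6 had 5.27 ± 0.259, Eif2ak3 3.87 ± 0.260 and Ern1 1.84 ± 0.316 RPKM. Derl3 was the lowest of the 34 at 0.163 ± 0.157 RPKM. Of the 33 pairs of neighbours in this order, 25 had overlapping mice in CD offspring and 32 in pLPD offspring, so that single steps of the order are mostly within the spread between mice, while its 2 ends are far apart. In the F0 groups, of 2 mice each, 15 of 33 pairs overlapped with CD and 14 of 33 with LPD.

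**Figure D1:**
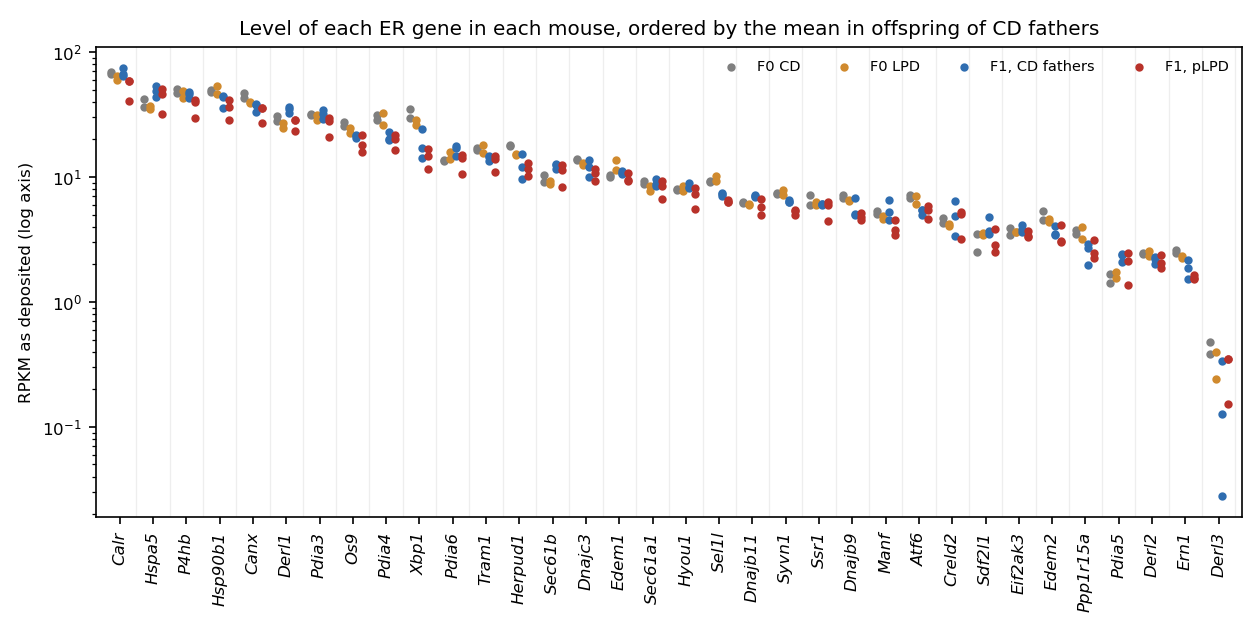
RPKM on a log axis of each of the 34 ER genes in each of the 10 mice, ordered by the mean in CD offspring, with 1 point per mouse coloured by group. Levels ran from 68.7 RPKM for Calr down to 0.163 RPKM for Derl3, and the 4 groups lay close together within most genes.

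Whether the diet of the father changed the ER genes of the offspring was asked by comparing exon reads of pLPD offspring with those of CD offspring, 3 mice against 3. None of the 33 genes tested was called at an adjusted p-value under 0.05, where edgeR's quasi-likelihood test called 1.17% of the 14049 genes tested, 0.142% higher and 1.02% lower. Derl3 did not pass the filter on low counts and was not tested. Of the 33, 13 were higher and 20 lower in pLPD offspring, with a median log2 fold change of −0.03 and a range of −0.30 to 0.21; the median over all genes was 0.01. Manf and Derl1 were lower at an unadjusted p-value below 0.05 and none of the 33 was higher, beside 15.3% of all genes in either direction. The 3 mice of one paternal diet lay above the 3 of the other in 2 of the 33, both lower in pLPD offspring, beside 20.1% of all genes (9.21% higher and 10.9% lower). In 30 of the 33 (90.9%), the 95% interval of the fold change lay within 1.5-fold in either direction, against 58.9% of all genes. The exceptions were Manf, Ppp1r15a and Sdf2l1. The median SE was 0.101 for the ER genes and 0.145 for all genes, and the part of read depth in these shares was not tested. None of the 33 was called in any of the 16 other settings, which were 10 other ways of processing and 6 fits that left out 1 mouse. In the fit with exon share as a covariate, the median of the ER genes was 0.11 (all genes 0.02), and with RPKM in limma it was −0.20 (all genes −0.15).

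Among the chaperones, 8 of 9 were lower, beside 48.6% of all genes, none past the threshold, with a median of −0.07. Of the 8, Hspa5, Hsp90b1, Hyou1, Dnajb9 and Dnajc3 were higher in some other way of processing. Manf, Sdf2l1 and Dnajb11 stayed lower in all of them. Manf, which encodes a small ER protein that binds BiP and can be secreted, lies on chromosome 9 of mm10 from 106838312 to 106891979. Its levels were 34.1, 38.0 and 46.5 CPM in CD offspring and 30.6, 28.6 and 36.3 CPM in pLPD offspring. The groups overlapped through 1 mouse of each. Its log2 fold change of −0.30 (SE 0.14, adjusted p = 0.314) was the largest fall of the 33. It was −0.17 without CD replicate 3 and −0.0034 on reads of the whole gene with introns (adjusted p = 0.994). The span of Manf overlaps Vprbp and Rbm15b, and whether reads were counted by strand is not given in the sources used here, so reads of the overlap cannot be told apart. Hspa5, on chromosome 2 from 34771970 to 34777547, had 395, 426 and 457 CPM with CD fathers and 341, 426 and 483 CPM in pLPD offspring. The lowest and the highest of the 6 values were both from pLPD offspring, and the log2 fold change was −0.02 (SE 0.12, 95% interval −0.29 to 0.25). It was 0.10 without pLPD replicate 1, 0.03 without CD replicate 3, and 0.35 with exon share as a covariate, in no case past the threshold. Hsp90b1, the Hsp90 of the ER, had a log2 fold change of −0.07 and Dnajc3, a J-domain partner that carries chains to BiP, one of −0.02.

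Calreticulin was the lectin chaperone with the larger difference. Calr, on chromosome 8 from 84841850 to 84846934, measured 403, 442 and 387 CPM in CD offspring and 296, 364 and 382 CPM in pLPD offspring. Each pLPD mouse lay below each mouse of a CD father, the nearest pair by less than the spread within either group. The log2 fold change was −0.23 (SE 0.11, adjusted p = 0.345), and it was 0.09 (adjusted p = 0.892) with the exon share as a covariate. Canx, its membrane-bound relative, had a log2 fold change of 0.01 with overlapping groups. Of the 5 disulfide isomerases, 4 were lower, beside 48.6% of all genes, none past the threshold. Pdia6, on chromosome 12 from 17266545 to 17284770, had 118, 133 and 133 CPM with CD fathers and 99.98, 122 and 121 CPM in pLPD offspring. The mice of the groups overlapped, with a fold change of −0.15 on the log2 scale (SE 0.10, adjusted p = 0.508), or 0.11 with exon share as a covariate.

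None of the 3 sensors passed the threshold in F1. Ern1, the gene of IRE1 on chromosome 11 from 106394650 to 106487852, had 26.7, 31.4 and 35.2 CPM with CD fathers and 31.2, 27.7 and 30.2 CPM in pLPD offspring (log2 fold change −0.06, SE 0.12). Atf6, on chromosome 1 from 170704674 to 170867771, had 84.5, 81.2 and 72.2 CPM against 83.7, 85.2 and 95.4 CPM (0.16, SE 0.09). Eif2ak3, the gene of PERK on chromosome 6 from 70844515 to 70905245, had 42.2, 46.4 and 41.9 CPM against 45.5, 43.5 and 41.5 CPM (0.01, SE 0.10). The groups overlapped in all 3, and the interval of each lay within 1.5-fold. Xbp1, whose mRNA is the target of IRE1, lies on chromosome 11 from 5520659 to 5525893. It had 99.98, 114 and 157 CPM with CD fathers and 95.2, 104 and 122 CPM with LPD fathers (log2 fold change −0.20, SE 0.15, adjusted p = 0.577). That difference rested on CD replicate 3, the highest of the 6, without which it was 0.01. Reads per gene do not separate the spliced from the unspliced mRNA of Xbp1. Ppp1r15a, the phosphatase subunit that reverses the action of PERK, lies on chromosome 7 from 45522916 to 45526268 and had 18.5, 12.0 and 15.99 CPM against 18.4, 14.2 and 20.9 CPM. Its log2 fold change of 0.21 (SE 0.19, adjusted p = 0.645) was the largest rise of the 33, with the groups overlapping. It was 0.05 without CD replicate 2, 0.08 without pLPD replicate 3 and 0.05 with limma on RPKM. Its span overlaps the end of Tulp2, and 88.8% of its exon reads matched that gene alone.

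In ER-associated degradation, 4 of the 8 genes tested were higher and 4 lower. Derl1, on chromosome 15 from 57869502 to 57892418, measured 235, 238 and 204 CPM in CD offspring and 184, 193 and 203 CPM in pLPD offspring. Each pLPD mouse lay below each mouse of a CD father, the nearest pair almost touching. The log2 fold change was −0.21 (SE 0.09, adjusted p = 0.285). Of its exon reads, 90.5% matched that gene alone. Derl3, which was not tested, had 0.540, 0.116 and 1.34 CPM with CD fathers and 0.766, 1.49 and 1.56 CPM in pLPD offspring, the lowest of them under the floor of 3 reads. Sel1l and Syvn1, which form the core of the ligase, had log2 fold changes of −0.02 and −0.11 with overlapping groups. The 4 translocon genes lay between −0.04 and 0.05, with Tram1, a membrane protein beside the Sec61 channel, farthest from 0. Tram1, on chromosome 1 from 13564698 to 13589910, had 91.2, 94.3 and 93.7 CPM against 87.7, 100.2 and 98.5 CPM (0.05, SE 0.09).

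**Figure D2:**
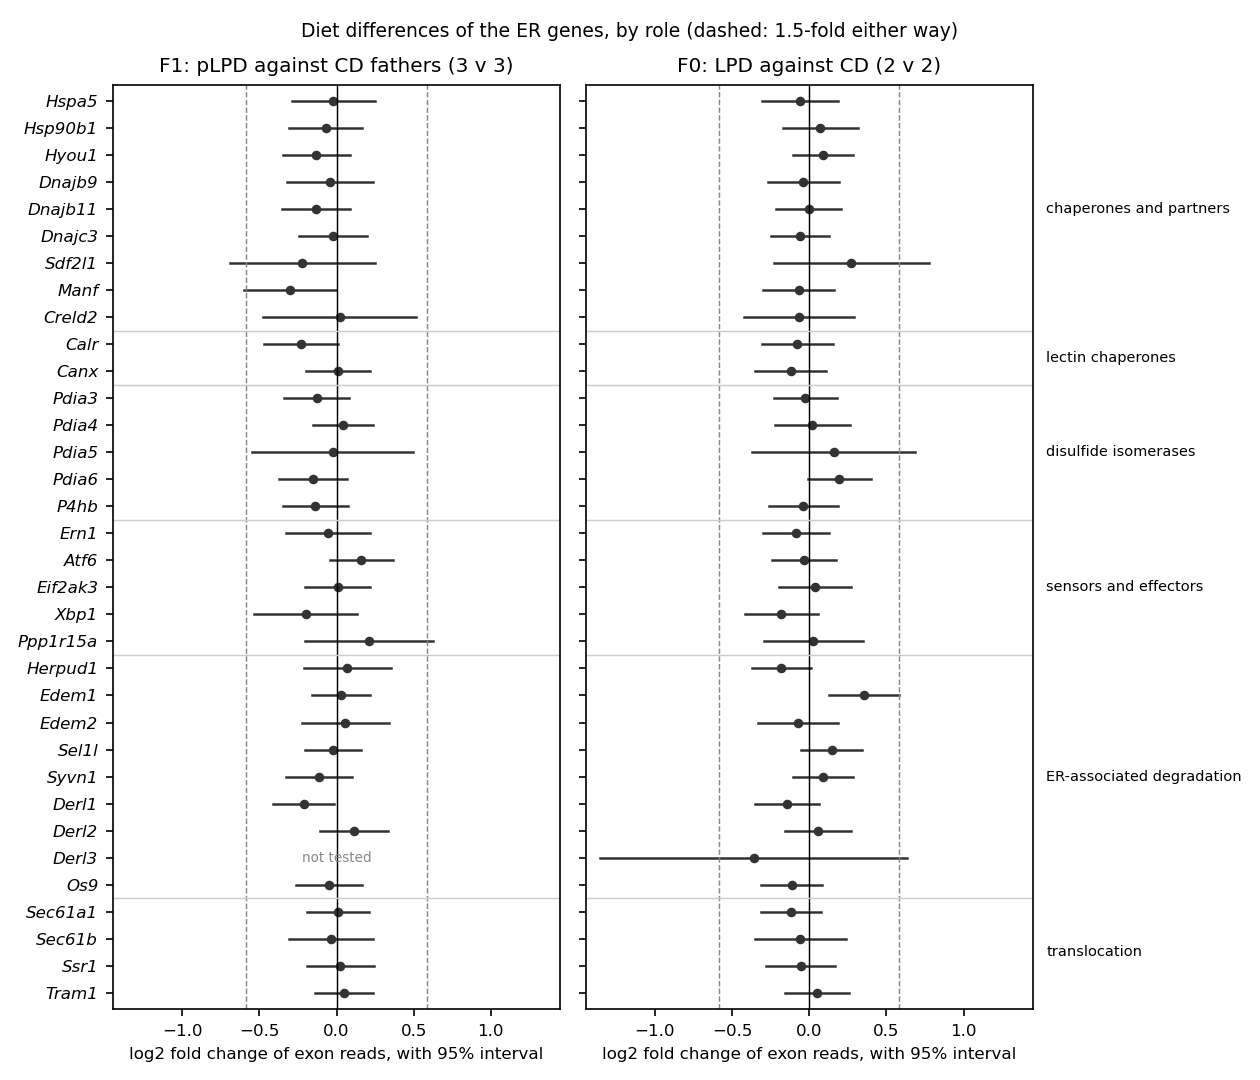
The log2 fold change of exon reads with its 95% interval for each ER gene, pLPD offspring against CD offspring on the left and LPD-fed against CD-fed F0 mice on the right; dashed lines mark 1.5-fold in either direction. In F1, 30 of 33 intervals lay between the dashed lines, and no gene was called in either generation.

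A score for each mouse was taken as the median log2 CPM over the 33 tested ER genes, each relative to its mean in that generation. It was 0.00, 0.03 and 0.04 in CD offspring and −0.13, −0.02 and 0.06 in pLPD offspring. The lowest and the highest of the 6 were pLPD offspring, as for Hspa5. The 34 genes together summed to 3963, 4189 and 4194 CPM with CD fathers, against 3561, 3931 and 4206 CPM with LPD fathers. The mouse with the lowest sum, pLPD replicate 1, was also the one with the lowest exon share, 51.6%. Introns held 14.4% to 15.5% of the reads on the 34 genes in CD offspring and 14.1% to 18.9% in pLPD offspring, with the highest share in the same mouse. The part of exon share in this order was not tested.

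In F0, 2 mice fed the LPD were compared with 2 fed the CD. None of the 34 ER genes was called at an adjusted p-value under 0.05, beside 2.5% of the 14581 genes tested (1.18% higher and 1.32% lower), with 13 higher and 21 lower and a median log2 fold change of −0.04 (all genes 0.00). At an unadjusted p-value below 0.05, 1 of the 34 was higher and none lower, beside 15.7% of all genes. In 16 of the 34, the 2 mice of one diet lay above the 2 of the other, 7 higher and 9 lower with LPD, beside 46.5% of all genes (22.8% higher and 23.6% lower). The intervals of 31 of the 34 genes (91.2%) lay within 1.5-fold, against 59% of all genes, with a median SE of 0.0987 against 0.141. The part of read depth in these shares was not tested. In the same comparison skeletal muscle markers were lower with LPD in 8 of 8, with 4 called, at a summed 809 to 1112 CPM against 1487 to 2319 CPM. B cell markers were higher in 8 of 8, with 1 called, at 689 to 735 CPM against 528 to 603 CPM. Of the adipocyte, fibroblast, macrophage and plasma cell lists 1 gene each was called, lower with LPD, and of the T cell, endothelial and epithelial lists none. The part of these markers in the F0 values given here was not tested.

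The gene past the unadjusted level was Edem1, a lectin that sorts misfolded glycoproteins for degradation, on chromosome 6 from 108828641 to 108859356; it was singled out after its values were seen. It measured 128 and 121 CPM in CD-fed and 148 and 171 CPM in LPD-fed mice. Both LPD-fed mice lay above both CD-fed mice, and the log2 fold change was 0.36 (SE 0.10, 95% interval 0.13 to 0.58, adjusted p = 0.110). It passed the threshold in 3 of 14 other settings: without a filter on low counts (adjusted p = 0.0173), with exon share as a covariate (0.0437), and under a replicate block (0.00638). Over all 14 settings the adjusted p-value ran from 0.00638 to 0.438. The 3 settings in which Edem1 passed each also called more of all genes than the main fit did, as given further below. In the F1 mice Edem1 had 146, 149 and 140.2 CPM with CD fathers and 155, 151 and 135 CPM in pLPD offspring, with the groups overlapping.

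No gene of the other roles passed the threshold in F0. Sdf2l1, a partner of the J-domain protein Dnajb11, had 5.37 and 7.29 CPM with CD and 7.88 and 7.49 CPM with LPD (log2 fold change 0.27, SE 0.22), on 46 to 79 reads per mouse over the series. That value was 0.08 without CD replicate 1 and 0.52 without CD replicate 2. Pdia6 had 96.3 and 96.5 CPM with CD and 104 and 116 CPM with LPD (0.20, SE 0.09, adjusted p = 0.339), both LPD-fed mice being the higher. Xbp1 had 185 and 214 CPM with CD and 169 and 183 CPM with LPD (−0.18, SE 0.10), both LPD-fed mice being the lower; its value was −0.07 without CD replicate 2 and −0.28 without CD replicate 1. Canx had 386 and 415 CPM against 369.9 and 367 CPM (−0.12, SE 0.10). Sec61a1, the pore of the translocon, had 114 and 118 CPM against 103 and 111 CPM (−0.12, SE 0.09), although only 77.7% of its exon reads matched that gene alone. Derl3, at 1.46 and 1.80 CPM with CD and 1.58 and 0.936 CPM with LPD, had a log2 fold change of −0.36 with an SE of 0.44, larger than that of Edem1 but within its own error, and of 0.19 on reads of the whole gene. The sensors lay between −0.09 and 0.04: Ern1 had 38.8 and 39.8 CPM against 37.8 and 36.0, Atf6 had 94.5 and 97.2 CPM against 88.3 and 99.1, and Eif2ak3 had 40.4 and 35.3 CPM against 39.4 and 38.1. Hspa5 had 339 and 289.9 CPM with CD and 297 and 307 CPM with LPD (−0.06, SE 0.11), both LPD-fed mice lying between the CD-fed mice.

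**Figure D3:**
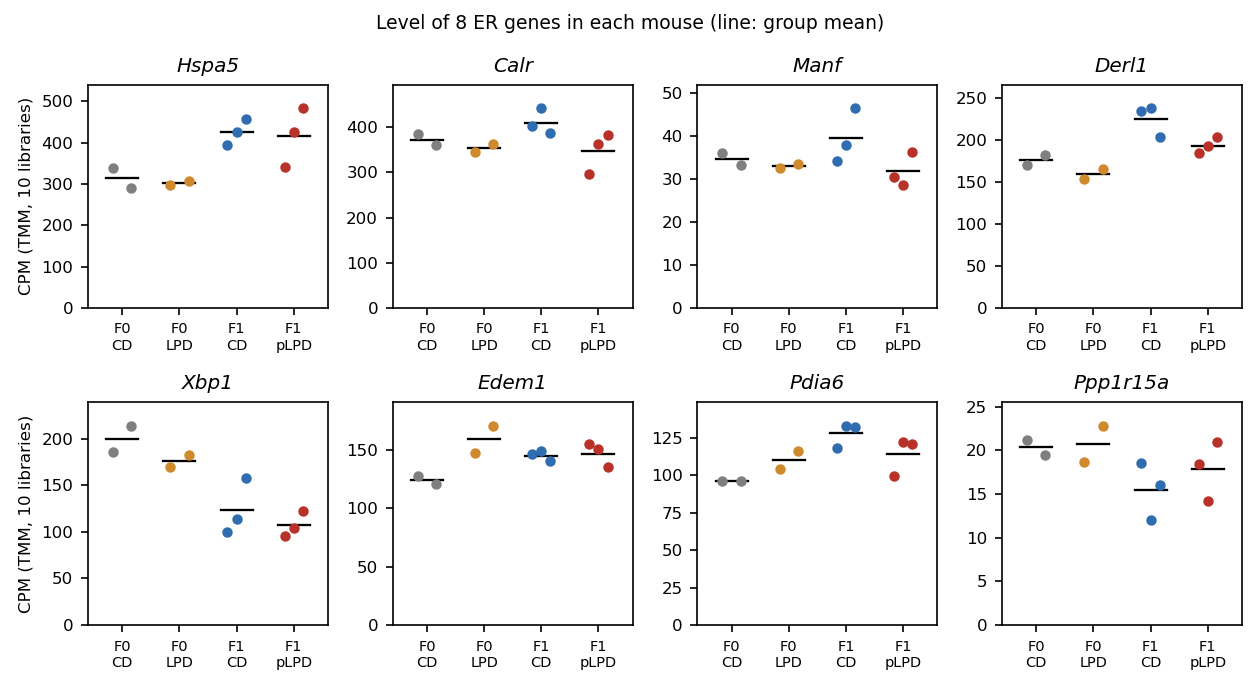
CPM of 8 ER genes in each of the 10 mice by group, with 1 point per mouse, a line at the group mean and each axis starting at 0. In F1 the groups overlapped in all but Calr and Derl1, as in Hspa5 at 341 to 483 CPM in pLPD offspring and 395 to 457 CPM with CD fathers. In F0 the diets did not overlap in Derl1, Xbp1, Edem1 and Pdia6. Xbp1 lay at 169 to 214 CPM in F0 and at 95.2 to 157 CPM in F1.

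To ask whether the diets acted differently in the generations, the interaction of generation and diet was tested in all 10 libraries. None of the 34 ER genes was called, beside 1.25% of the 15111 genes tested (0.357% higher and 0.893% lower). At an unadjusted p-value below 0.05, 2 of the 34 had a lower difference in F1 than in F0, beside 12.5% of all genes in either direction; both are named here for that reason. They were Edem1, with an interaction of −0.34 on the log2 scale (SE 0.13, adjusted p = 0.291), and Pdia6, with −0.36 (SE 0.14, adjusted p = 0.316). In Pdia6 the diet difference was negative in F1 and positive in F0. Of the 33 genes tested in both generations, 13 were lower in both, 6 were higher in both and 14 had opposite signs.

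The levels themselves differed between the generations, a comparison that was added after the data had been seen. F1 mice were 5 weeks old and F0 mice 10–12 weeks, so generation and age coincide and cannot be told apart. Whether the libraries of F1 and F0 were made together is not given in the sources used here. With the diets averaged, 11 of the 34 ER genes (32.4%) were called at an adjusted p-value under 0.05, 6 higher and 5 lower in F1, where 32.5% of the 15111 genes tested were called, 16.4% higher and 16.1% lower. At an unadjusted p-value below 0.05 the ER genes held 8 higher and 12 lower, beside 42.5% of all genes in either direction. In 5 of the 34 each F1 mouse lay above each F0 mouse, beside 10.2% of all genes, and in 4 each lay below, beside 9.87%. The called share among the ER genes was thus near that of all genes and is no result about them as a group. The median difference was −0.02 (all genes 0.00). Skeletal muscle markers were far higher in F0, at a summed 809 to 2319 CPM against 47.2 to 192 CPM in F1, with 8 of 8 called. The summed level of the fibroblast and progenitor markers was 12759 to 29886 CPM in F1 and 4244 to 5427 CPM in F0, but its genes went both ways, with 4 called higher and 3 called lower in F1. T cell markers were higher in F1 in 8 of 8, with 7 called and a median of 0.52, and adipocyte markers were lower in 8 of 10, with 6 called lower, 1 called higher and a median of −0.30. The part of these lists in the differences below was not tested.

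Single genes differed in both directions within one role. Xbp1 had the largest difference, with 169 to 214 CPM in the 4 F0 mice and 95.2 to 157 CPM in the 6 F1 mice, which did not overlap. Its log2 difference, F1 minus F0, was −0.71 (SE 0.11, adjusted p = 0.000472). Ern1, which acts on the mRNA of Xbp1, was lower as well, at 26.7 to 35.2 CPM in F1 and 36.0 to 39.8 CPM in F0 (−0.33, SE 0.08, adjusted p = 0.00952). Hspa5 was higher in F1, at 341 to 483 CPM against 289.9 to 339 CPM, a log2 difference of 0.45 (SE 0.09, adjusted p = 0.00295). Sec61b, the small subunit of the translocon, was higher by 0.46 (SE 0.09, adjusted p = 0.00276), with 26.9 to 35.7 CPM in F1 and 21.8 to 25.5 CPM in F0. Of the exon reads of Sec61b, 80.6% matched that gene alone. These 4 genes did not overlap between the generations.

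Derl1 (0.31), Dnajb11 (0.23), Pdia6 (0.23) and Pdia5 (0.60) were also called higher in F1, and Pdia4 (−0.38), Sel1l (−0.30) and Herpud1 (−0.29), an ER membrane protein of the degradation complex, were called lower. The disulfide isomerases therefore split, with Pdia4 at 99.1 to 117 CPM in F1 and 126 to 152 CPM in F0, and Pdia6 at 99.98 to 133 CPM in F1 and 96.3 to 116 CPM in F0. Pdia5 rests on 36 to 71 reads per mouse, and on reads of the whole gene with introns its difference was −0.03 (adjusted p = 0.854). Hspa5, Sec61b, Derl1, Pdia4 and Xbp1 passed the threshold in all 8 other ways of processing and in all 10 fits that left out 1 mouse. Ern1 and Sel1l kept theirs in all 10 fits without 1 mouse and in 6 and 7 of the 8 other ways of processing. Herpud1 kept its call in 7 of 8 and in 6 of 10, Pdia6 in 7 of 8 and in 4 of 10, Pdia5 in 5 of 8 and in 7 of 10, and Dnajb11 in 4 of 8 and in 5 of 10. Of the exon reads of Herpud1, 89.4% matched that gene alone. Between 3 and 7 ER genes were called higher and 4 to 8 lower when 1 mouse was left out, with 3 higher without F0 CD replicate 2 and 8 lower without pLPD replicate 3. With CD offspring set against CD-fed F0 mice alone, 4 were called higher and 3 lower.

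**Figure D4:**
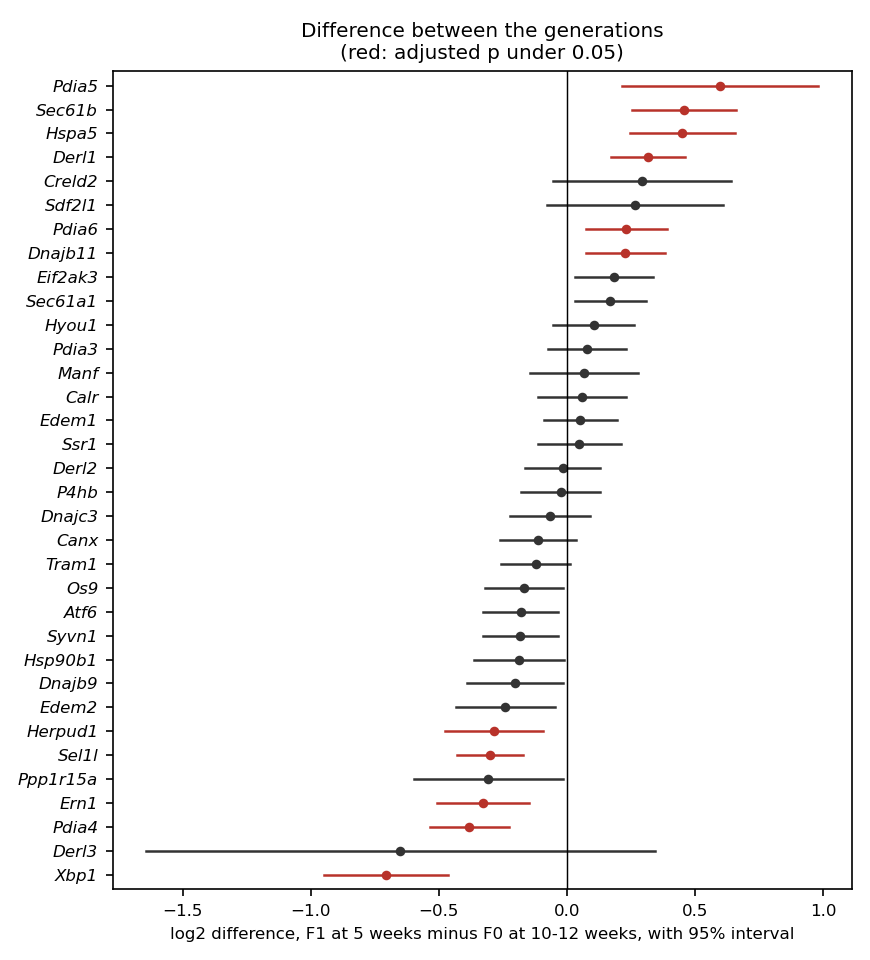
Log2 difference of exon reads between F1 mice at 5 weeks and F0 mice at 10–12 weeks with its 95% interval for each of the 34 ER genes, red where the adjusted p-value was under 0.05. It shows 6 called genes to the right of 0 and 5 to the left, from Pdia5 at 0.60 to Xbp1 at −0.71.

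The other genes of the ER pathways, 127 in 8 lists, were compared in the same fits. In F1, 1 of the 124 tested was called, beside 1.17% of all genes, and in F0 3 of the 122, beside 2.5% of all genes, so that both counts were near the share over all genes. In pLPD offspring the called gene was Qsox1, a sulfhydryl oxidase that makes disulfide bonds. It fell from 74.6, 76.7 and 65.6 CPM in CD offspring to 53.0, 49.0 and 54.2 CPM with LPD fathers, without overlap (log2 fold change −0.47, SE 0.09, adjusted p = 0.0448). The call was kept in 1 of the 6 fits that left out a mouse, the one without CD replicate 3, and the adjusted p-value reached 0.206 without CD replicate 2. All 10 genes of the list directed to collagen, which holds its dedicated chaperone and hydroxylases, had negative log2 fold changes in pLPD offspring, from −0.56 to −0.04 with a median of −0.30. None of the 10 was called, and 5 had an unadjusted p-value below 0.05, beside 15.3% of all genes. The fibroblast markers given above were lower in the same mice, and their part in this list was not tested. The list medians in F1 were −0.02 for 16 genes of glycan transfer and trimming, −0.04 for 25 of oxidation and other folding enzymes, which hold Qsox1, 0.01 for 21 of retrotranslocation and ubiquitin ligases, and 0.04 for 20 of signal recognition, the translocon and signal peptidase. They were 0.07 for 12 genes of the PERK and ATF4 branch, −0.23 for 9 of the ATF6 and CREB3 family branch and −0.20 for 11 of cytosolic heat shock, with none called in any list but that of Qsox1.

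In F0, 2 of the 12 genes of the PERK and ATF4 branch were called, both higher with LPD, beside 1.18% of all genes called higher. Sesn2, a sestrin induced by ATF4 and other stress signals, rose from 19.4 and 14.0 CPM with CD to 32.5 and 46.2 CPM with LPD (log2 fold change 1.24, SE 0.20, adjusted p = 0.0191). Cebpb, a transcription factor of the adipocyte programme that also pairs with ATF4, rose from 80.3 and 78.3 CPM to 119 and 113 CPM (0.55, SE 0.09, adjusted p = 0.0186). Atf4 itself had a log2 fold change of 0.18 in F0 (adjusted p = 0.424). Hsp90aa1, the inducible Hsp90 of the cytosol, rose from 205 and 209 CPM to 294 and 300.6 CPM (0.52, SE 0.09, adjusted p = 0.0260). When 1 mouse was left out, Sesn2 kept its call in 2 of 4 fits, with an adjusted p-value up to 0.0688 (without LPD replicate 2), and Cebpb and Hsp90aa1 in 1 of 4 each, the fit without LPD replicate 1, with adjusted p-values up to 0.0759 and 0.150 (without CD replicate 2). None of the genes of glycan transfer, oxidation, retrotranslocation or the translocon was called in F0, and the list medians there lay between −0.02 and 0.03. The medians of the remaining lists in F0 were 0.14 for the PERK and ATF4 branch, 0.11 for the ATF6 and CREB3 family branch, 0.06 for cytosolic heat shock and 0.05 for the collagen-directed list.

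**Figure D5:**
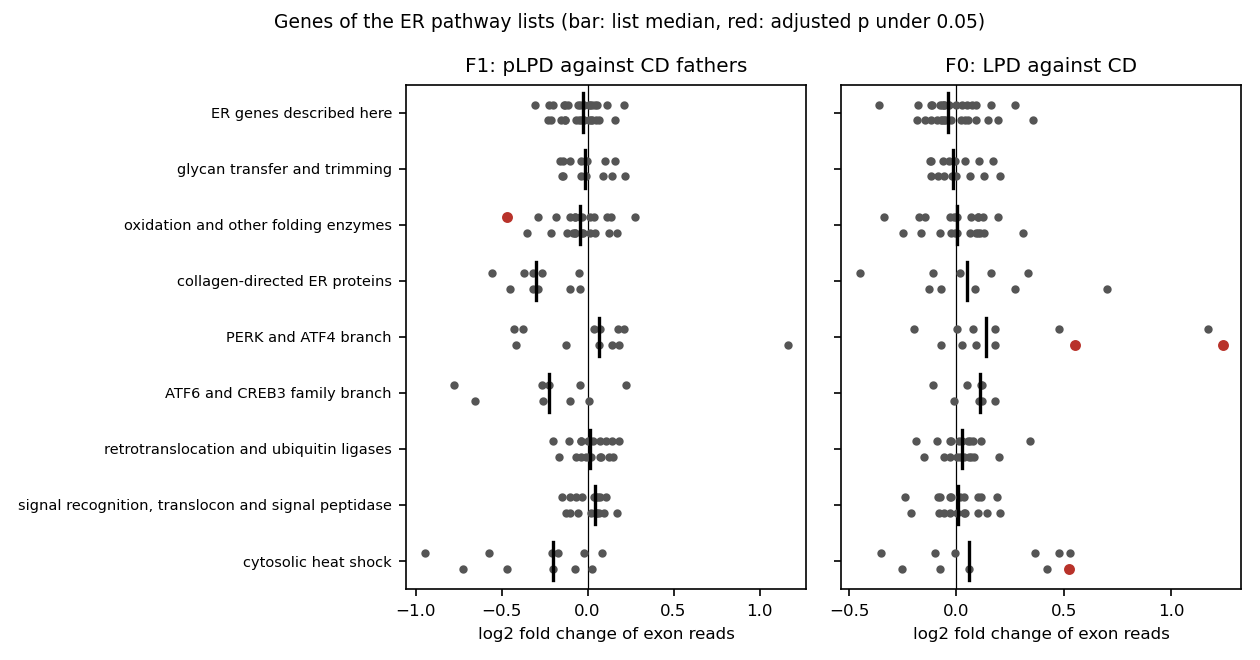
Log2 fold changes of exon reads in F1 (left) and F0 (right) for the ER genes and the genes of 8 further ER and heat shock lists, with 1 point per gene, a bar at the list median and red points for an adjusted p-value under 0.05. The ER genes described here had medians of −0.03 and −0.04, the collagen-directed list a median of −0.30 in F1, and 1 gene in F1 and 3 in F0 were red.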

How the data were processed

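RNA-seq of iWAT from 10 male mice was analysed, 1 library per mouse. Per the labels and methods, libraries were directional after rRNA depletion, and the authors used CLC Genomics Workbench with the mm10 genome for the paired reads. The deposited counts are the authors' total reads per gene on exons, with no normalization, beside uniquely matching exon reads, intron reads and reads on the whole gene. In the deposited RPKM values, the authors divided by the length of the exons and by a library total that also holds reads off exons. The deposited TPM values, which the authors scaled from RPKM, entered no result. The 34 genes, the 8 pathway lists, the 9 marker lists, their roles and the tests were chosen with earlier results of these data known. CPM values use TMM scaling over all 10 libraries.

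Exon counts were filtered with filterByExpr, scaled by TMM and tested two-sided with the quasi-likelihood F test of edgeR 4.0.16 in R 4.3.3, F1 and F0 in fits of their own, with Benjamini-Hochberg adjustment over all genes tested and a threshold of 0.05. The interaction and the difference between the generations used all 10 libraries. The standard error is the log2 fold change divided by the square root of F, and 95% intervals use the degrees of freedom of the fit. No test was made over the list. F1 mice came from different mothers. The diet was given to their fathers, and the sources used here do not say whether each F1 mouse had a father of its own. For F0 mice those sources do not say how they were related. The p-values thus measure the spread between these mice and not between fathers. Values in every mouse are given for each gene called, for the gene of largest log2 fold change in each role per generation at a mean of at least 1 CPM, and for Hspa5, Xbp1, Ern1, Atf6 and Eif2ak3; of other lists, called genes were named. Edem1 was singled out in F0 and in the interaction, and Pdia6 in the interaction, after their values were seen, as were the genes called between the generations.

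Tested on simulated counts, the F1 fit recovered 28.1% of genes changed by 0.5, 83.6% by 1 and 96.9% by 2 on the log2 scale, over 13869 genes. For F1 and F0, alternatives were DESeq2 1.42.0, its size factors in edgeR, no filter, a minimum of 10 reads in each sample, 1 fit of all 4 groups, a replicate block, unique exon reads, whole-gene reads, limma 3.58.1 on log2 RPKM with 0.1 added, exon share as a covariate, and each mouse left out. For the interaction they were DESeq2, its size factors, no filter, the minimum of 10 reads, the replicate block and each mouse left out. The comparison of generations and its alternatives were chosen after seeing the data. Replicate numbers in the labels are not said to pair mice.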

Additional observations from a re-analysis of the deposited data

Results flagged for a closer look

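By edgeR's test of the interaction, 7 genes of the ER, pathway and marker lists had a diet difference that differed between F1 and F0. Values are log2, F1 minus F0, from the main fit, and how far these calls hold in other settings is not given here. The interaction was not fitted with exon share as a covariate. None of them is among the 34 ER genes. The pathway lists held 2 of 124 tested, beside 1.25% of all 15111 genes. The others were cell type markers, 2 of 10 for adipocytes, 1 of 6 for plasma cells, 1 of 8 for macrophages and 1 of 8 for skeletal muscle. The other marker lists held none. In the PERK and ATF4 list, Cebpb had an interaction of −0.98 (SE 0.15, adjusted p = 0.00945), being lower in pLPD offspring (−0.42, adjusted p = 0.0683) and higher in LPD-fed F0 mice (0.55, adjusted p = 0.0186). Among the collagen-directed proteins, Plod1, a lysyl hydroxylase, had −0.71 (adjusted p = 0.0257), with 95.3, 95.1 and 96.5 CPM in the offspring of CD fathers, 74.6, 71.6 and 74.8 CPM in pLPD offspring, 79.2 and 73.3 CPM in CD-fed F0 mice, and 86.1 and 106 CPM in LPD-fed F0 mice. Among the adipocyte markers, Retn (resistin) had 1.01 (adjusted p = 0.0454) and Cfd (adipsin) 1.13 (adjusted p = 0.0381). Irf4, listed with plasma cell genes, had 0.97 (adjusted p = 0.00965), and the macrophage marker Adgre1 had −0.70 (adjusted p = 0.0353). The slow muscle myosin Myh7 had 7.10 (adjusted p = 0.0287); it stood at 17.6 and 22.5 CPM in CD-fed F0 mice and at 0 to 1.07 CPM in each of the other mice, so the size of this value depends on the prior count of the fit and is not a bound.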

How the results depend on the processing

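None of the ER genes was called in F1 or in the interaction under any alternative made for it, and in F0 only Edem1 was, with no filter on low counts, the replicate block and the exon share as a covariate (1 gene called higher in each). The interaction was refitted in 5 other ways of processing, which did not include exon share, unique exon reads, whole-gene reads or limma. In F1, 20 of all genes were called higher and 144 lower; these counts were 74 and 269 with DESeq2, 234 and 564 with no filter, 62 and 277 with all 4 groups in one fit, 48 and 212 with the replicate block, and 1 and 10 with exon share as a covariate, while 42 were higher with unique exon reads and 2 with limma on RPKM. In F0, 172 and 192 genes became 633 and 710 with no filter, 110 and 65 with all 4 groups, 656 and 735 with the block, 30 and 52 with limma, and 473 and 572 with exon share. For the interaction, 54 and 135 became 106 and 235 with DESeq2, 314 and 576 with no filter, and 83 and 184 with the block. Between the generations, 2474 and 2432 became 1531 and 1326 in the CD groups alone, and 1447 were lower with exon share; of the ER genes, 3 were then called higher on whole-gene reads, 3 lower in the CD groups alone and 8 lower with no filter. Same-numbered F1 mice had correlations of 0.00903 to 0.0736 and F0 mice 0.0564. These values cannot decide on pairing, because deviations from the mean of so few mice are bound to each other. The numbers were not taken to pair the mice, since the labels do not say that they do.

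The median of the ER genes was −0.1962 (all genes −0.1467) with limma and 0.1067 with exon share in F1, and −0.0973 (all genes −0.0542) with limma and −0.0054 on whole-gene reads in F0. In F1, the sign turned with exon share for Calr (0.0935), Pdia6 (0.1103), Hspa5 (0.3504), Xbp1 (0.0088) and Eif2ak3 (−0.0556), and with limma for Tram1 (−0.1176), Atf6 (−0.0003) and Eif2ak3 (−0.1497); Eif2ak3 also had −0.0023 with all 4 groups and −0.0091 with unique reads. In F0 it turned on whole-gene reads for Derl3 (0.1934) and Atf6 (0.0401) and with limma for Eif2ak3 (−0.0181), and between the generations on whole-gene reads for Pdia5 (−0.028). The cause of these changes was not tested. Qsox1 also lost its call with the block (adjusted p = 0.0523), on whole-gene reads (0.0648), with limma (0.0506) and with exon share (0.462), and Sesn2, Cebpb and Hsp90aa1 with limma (0.0707, 0.0679 and 0.0725), the last also with all 4 groups (0.0751).

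With each mouse left out in turn, genes called in F1 numbered 1 to 140 higher and 17 to 370 lower, most without CD replicate 3 and fewest without CD replicate 1, and in F0 68 to 281 higher and 37 to 223 lower. The interaction had 5 to 132 higher and 14 to 263 lower, and the generations 1636 to 2459 and 1549 to 2510, with 3 to 7 ER genes higher and 4 to 8 lower. The median of the ER genes ran from −0.0624 to −0.0065 in F1, −0.0584 to −0.002 in F0, −0.0647 to 0.0245 in the interaction and −0.0498 to 0.0031 between the generations. Of the named genes, Hspa5 ran from −0.1433 to 0.1048 in F1 and −0.1646 to 0.0592 in F0, Xbp1 from −0.3329 to 0.0079 and Ern1 from −0.1556 to 0.038 in F1, Eif2ak3 from −0.0226 to 0.0569 in F1 and −0.0566 to 0.1367 in F0, and Atf6 from −0.1184 to 0.0448 in F0. Other named genes moved by over 1.5 times without a change of sign or call, among them Canx (−0.1732 to −0.0638) and Derl3 (−0.7964 to −0.0493) in F0, and Calr (−0.3057 to −0.1258), Pdia6 (−0.2123 to −0.0628) and Atf6 (0.0974 to 0.2065) in F1. With 1 mouse left in an F0 group, that mouse is assumed to vary like the others. In F0 the intervals that reached beyond 1.5-fold were those of Derl3, Pdia5 and Sdf2l1, genes of few reads.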
